A study of Mus musculus with 12 samples.

Results

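Ly6c1, Ly6c2, Ly6a and Ly6e, 4 genes of the Ly6 family of surface proteins, were followed through adriamycin (ADR) injury in RNA enriched for glomeruli from mice of 2 substrains, BALB/cAjcl (written Ajcl below) and BALB/cByJcl (ByJcl). The members were chosen by name out of 26264 gene symbols, and the names were selected on their levels after ADR in these same libraries. Their Day 5 against baseline differences are therefore given as a description, with no p-value, and how many of them passed a threshold is given only beside the share of all genes, with nothing read from it. All 4 were found in both count tables and passed the filter on low counts.

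The study compared these BALB/c substrains in a model of toxic podocyte injury. Mice were males of 8 weeks, obtained from CLEA Japan, and were either left untreated (baseline) or given 1 intravenous dose of ADR at 10 mg/kg and examined at Day 5. Glomeruli were collected by perfusing magnetic beads that lodge in their capillaries, and poly(A)-selected RNA was sequenced with 3 libraries in each of the 4 groups. The labels name no transgene, deletion or vehicle injection in any group.

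Ly6 proteins are small cysteine-rich molecules that are fixed to the outer leaflet of the plasma membrane by a glycosylphosphatidylinositol (GPI) anchor. They are widely used as surface markers, and several of them are induced by interferons. Ly6c1 is abundant in many capillary endothelial cells, whereas Ly6c2 is best known from monocytes and some T cells. Ly6a encodes the stem cell antigen Sca, which marks haematopoietic stem cells and is also found on endothelium. Ly6e is broadly expressed and is known for effects on the entry of viruses and as a receptor for the placental protein syncytin-A.

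The members lie side by side on mouse chromosome 15. In GRCm39, the build used by the authors, Ly6e spans chr15:74826860-74847454 on the plus strand. Ly6a (chr15:74863840-74869880), Ly6c1 (chr15:74915847-74920686) and Ly6c2 (chr15:74980003-74988467) lie on the minus strand. From the start of Ly6e to the end of Ly6c2 are 162 kb, which hold 5 protein-coding genes in the GENCODE annotation, the members and Ly6i. The coding sequences of Ly6c1 and Ly6c2 have 393 bases each and are identical at 384 of them (97.7%), with a longest identical run of 188 bases. Ly6c1 and Ly6a are identical at 83.7% of aligned bases, and Ly6e at 58.9% to 61% with the other members. The first 120 coding bases of Ly6c1 and Ly6c2 are shown because reads of these genes have to be told apart by such differences; capitals mark the 6 bases at which they differ.
Ly6c1: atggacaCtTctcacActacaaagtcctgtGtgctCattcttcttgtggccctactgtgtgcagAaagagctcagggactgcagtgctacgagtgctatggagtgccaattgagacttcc
Ly6c2: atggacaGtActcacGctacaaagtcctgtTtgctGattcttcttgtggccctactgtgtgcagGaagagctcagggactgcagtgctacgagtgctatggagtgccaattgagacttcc
Of all 50-base windows in the canonical Ly6c1 transcript, 24.3% also occur in a transcript of Ly6c2, and 32% of the Ly6c2 windows occur in Ly6c1. With 150-base windows these shares were 4.15% and 5.67%. Of the 50-base windows of Ly6c1, 12% also occur in Ly6a. With transcripts of any other gene, Ly6a shared 16.7% of its 50-base and 3.54% of its 150-base windows, and Ly6e 18.2% and 14.4%. How reads that match more than 1 gene were counted is not given in the sources used here. The split of counts between Ly6c1 and Ly6c2 is therefore uncertain, and the counts of Ly6a and Ly6e may also be affected. BALB/c mice also carry another Ly6 haplotype than the reference strain, and its effect on the alignment was not tested.

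Depth ranged from 42198416 to 54687045 counts per library (whether a read pair was counted as 1 or 2 is not given in the sources used here). The small number of libraries limited the precision, and for family genes with few counts depth may have limited it as well. Levels are CPM, the share of a library's counts after TMM scaling in edgeR, with SD between libraries. Endothelial and podocyte markers were present in every library, with sums of 8144 to 13060 CPM over 18 endothelial genes and 11590 to 25720 CPM over 14 podocyte genes. Library 1 of Ajcl at Day 5 stood apart, with the highest sums of proximal tubule markers (11710 CPM, against 683 to 7472 in the others) and of distal nephron markers (2593 CPM, against 149 to 2044). The study left it out for reduced glomerular purity, and it is given here beside the other values but outside the fit, so that Ajcl at Day 5 has n = 2. Where 1 of these 2 libraries is left out below, the group is a single library that is assumed to vary like the other groups, which then supply the spread. Baseline and Day 5 counts come from separate tables, and a difference in how the tables were made cannot be told apart from ADR. In such bulk RNA, a change in the number of cells and a change in RNA per cell cannot be told apart either. The labels do not say how the libraries relate to single animals, so the tests measure the spread between these libraries, part of which may be technical.

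Ly6c1 was the most abundant member at baseline and its level was over 3 times higher at Day 5 in both substrains. In Ajcl it stood at 160, 140 and 127 CPM at baseline and at 436 and 504 CPM in Day 5 libraries 2 and 3, and in ByJcl at 151, 173 and 170 CPM at baseline and at 401, 637 and 597 CPM at Day 5. Every Day 5 library was above every baseline library. The log2 fold change was 1.72 in Ajcl (SE 0.18, 3.30-fold) and 1.73 in ByJcl (SE 0.17, 3.31-fold). The library of Ajcl outside the fit held 439 CPM, next to library 2. The substrains overlapped at both time points, and the ByJcl minus Ajcl difference between their log2 fold changes was 0.01 (SE 0.25). Within ByJcl at Day 5, library 1 was clearly below the other two.

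Ly6c2 followed Ly6c1 at a much lower level. In Ajcl its level was 15.1, 15.04 and 13.5 CPM at baseline and 46.6 and 56.3 CPM at Day 5, and in ByJcl 16.3, 18.8 and 19.2 CPM at baseline and 44.8, 67.9 and 63.1 CPM at Day 5. The baseline and Day 5 libraries again did not overlap, and library 1 of ByJcl at Day 5 was again the lowest of its group. The log2 fold change was 1.82 in Ajcl (SE 0.17, 3.54-fold) and 1.70 in ByJcl (SE 0.16, 3.24-fold), a difference of -0.13 (SE 0.23). The Ajcl library outside the fit held 43.9 CPM.

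**Figure D1:**
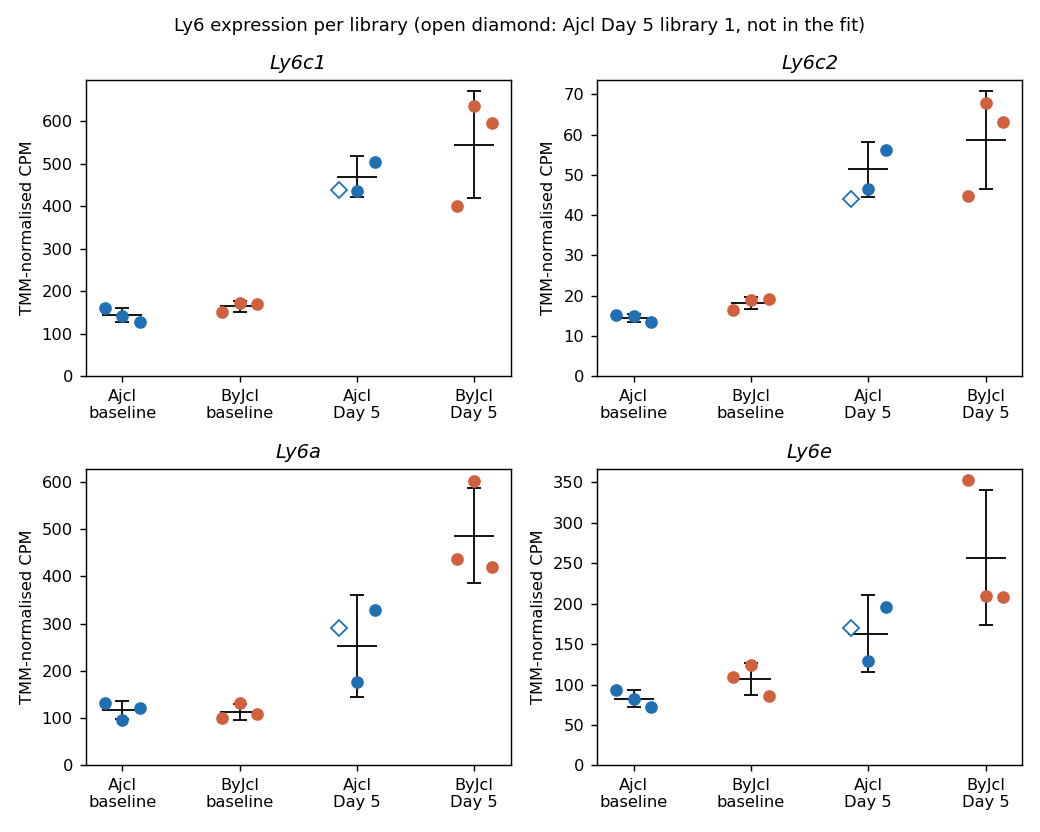
Level of Ly6c1, Ly6c2, Ly6a and Ly6e in each library (y axis, TMM-normalised CPM from 0) by group (x axis); filled circles are libraries of the fit, the open diamond is library 1 of Ajcl at Day 5, which lies outside it, and lines with bars are mean ± SD (n = 3, but n = 2 in Ajcl at Day 5). All Day 5 libraries lie above all baseline libraries of their substrain, and the substrains are apart at Day 5 for Ly6a (177 and 329 CPM in Ajcl, 420 to 602 CPM in ByJcl) and Ly6e.

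The levels of Ly6c1 and Ly6c2 moved in near-constant proportion. The ratio of Ly6c1 to Ly6c2 counts lay between 8.88 and 10.6 in the 11 libraries of the fit, and at 10.0 in the library outside it. Its SD on the log2 scale was 0.0674. Other pairs of members varied more, with SDs of their log2 ratios from 0.384 (Ly6c1 to Ly6a) to 0.52 (Ly6c1 to Ly6e and Ly6c2 to Ly6e). The ratio of Ly6c1 to Ly6a ran from 0.919 to 2.47. These ratios are a description over libraries that share 4 groups. The part of reads shared between Ly6c1 and Ly6c2 in their constant ratio was not tested.

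**Figure D2:**
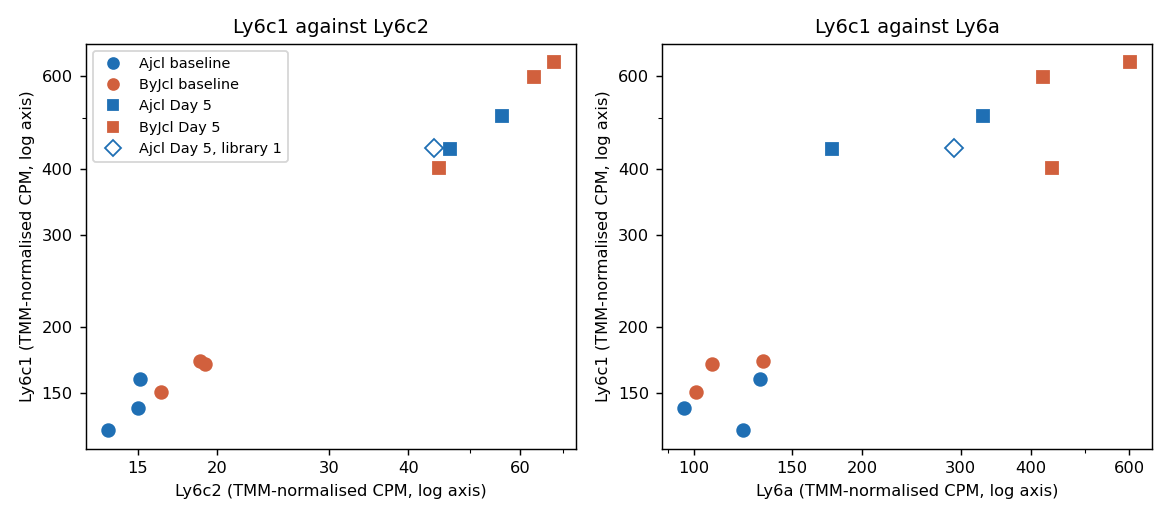
Ly6c1 (y axis, CPM, log axis) against Ly6c2 (left, x axis, CPM, log axis) and against Ly6a (right), with 1 point per library; circles are baseline, squares Day 5, blue Ajcl and orange ByJcl, and the open diamond is library 1 of Ajcl at Day 5. The points against Ly6c2 lie close to a line (count ratio 8.88 to 10.6), while those against Ly6a scatter more widely (ratio 0.919 to 2.47).

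Of the members, Ly6c1 and Ly6c2 had promoter windows in the RefSeq-based table (2 of 4), and they are shown because these are the genes that moved together. The windows run from 250 bases before to 50 after a transcription start, on the minus strand of GRCm38.p6, at chr15:75048788-75049087 for Ly6c1 and chr15:75111922-75112221 for Ly6c2. The table has 2 windows for each gene, and the first of each is shown. These could be aligned over 266 bases, of which 208 were identical (78.2%), and the other pairings of windows were identical at 77.6% to 89.3% of 143 to 232 aligned bases. Capitals mark the longest run that both share, 20 bases.
Ly6c1 promoter: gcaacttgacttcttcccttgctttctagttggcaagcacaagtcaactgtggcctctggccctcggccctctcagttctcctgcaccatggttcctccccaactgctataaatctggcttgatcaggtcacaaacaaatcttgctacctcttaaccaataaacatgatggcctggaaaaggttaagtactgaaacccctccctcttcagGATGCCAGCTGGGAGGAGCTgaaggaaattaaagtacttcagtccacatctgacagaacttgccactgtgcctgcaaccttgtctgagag
Ly6c2 promoter: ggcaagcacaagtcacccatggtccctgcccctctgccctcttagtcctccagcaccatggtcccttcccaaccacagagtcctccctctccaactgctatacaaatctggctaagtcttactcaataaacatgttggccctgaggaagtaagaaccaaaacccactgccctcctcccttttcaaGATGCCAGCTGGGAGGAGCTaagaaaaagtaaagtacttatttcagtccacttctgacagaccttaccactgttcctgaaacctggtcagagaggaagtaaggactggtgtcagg
The letters GAAANNGAAA, as in interferon-stimulated response elements, occur on either strand in 3.44% of 32851 promoter windows of the same length, and TTCNNNGAA, as in gamma-activated sites, in 8.3%. Neither was found in either window of Ly6c1 or Ly6c2. The letters TATAAA, present in 13.6% of all windows, start at base 108 of the Ly6c1 window shown and are in none of the other 3 windows. Such matches describe letters in these windows only.

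Ly6a was at similar levels in both substrains at baseline and higher in every ByJcl than in every Ajcl library at Day 5. At baseline it stood at 131, 96.2 and 122 CPM in Ajcl and at 101, 133 and 108 CPM in ByJcl, and these ranges overlapped. At Day 5 it stood at 177 and 329 CPM in Ajcl libraries 2 and 3 and at 436, 602 and 420 CPM in ByJcl, and the Ajcl library outside the fit held 292 CPM. All Day 5 libraries were above all baseline libraries, and all ByJcl libraries were above all Ajcl libraries at Day 5. The log2 fold change from baseline was 1.12 in Ajcl (SE 0.25, 2.17-fold) and 2.09 in ByJcl (SE 0.24, 4.27-fold), a difference of 0.98 (SE 0.34) that was 1.52 without Ajcl Day 5 library 3 and 0.62 without library 2. The Ajcl value depended on the library, with a log2 fold change of 0.58 without library 3 and 1.48 without library 2.

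Ly6e was also higher at Day 5 than at baseline in both substrains, by a log2 fold change that in Ajcl was within the SEs of that of Ly6a. In Ajcl it stood at 93.4, 81.5 and 72.4 CPM at baseline and at 129 and 196 CPM at Day 5, and in ByJcl at 110, 124 and 85.4 CPM at baseline and at 352, 209 and 208 CPM at Day 5. Here library 1 of ByJcl at Day 5, the lowest of its group for Ly6c1 and Ly6c2, was the highest. The time points did not overlap in either substrain. The log2 fold change was 0.98 in Ajcl (SE 0.26, 1.97-fold), or 0.63 without Day 5 library 3 and 1.24 without library 2. It was 1.27 in ByJcl (SE 0.23, 2.41-fold), a difference of 0.29 (SE 0.35) that was 0.65 without Ajcl Day 5 library 3 and 0.01 without ByJcl Day 5 library 1. The Ajcl library outside the fit held 170 CPM.

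As background to these descriptions, 13.6% of the 17002 genes tested had all Day 5 libraries above all baseline libraries in Ajcl, and 17.3% in ByJcl, where the members were 4 of 4 each time. At an adjusted p below 0.05, from the quasi-likelihood test of edgeR and Benjamini-Hochberg adjustment over all genes tested, 0.306% of genes were higher at Day 5 in Ajcl and 2 of the members (Ly6c1 and Ly6c2), and 5.75% were higher in ByJcl with 4 of 4 members. Since the members were selected on these values, nothing is read from their counts. The median log2 fold change of the members was 1.42 in Ajcl and 1.71 in ByJcl, against -0.01 and 0.01 over all genes tested. Between the substrains' responses to ADR, 0% of genes were called by edgeR. DESeq2 called 22 genes, and 1363 genes had an unadjusted p below 0.05 in edgeR.

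The substrains were compared directly at each time point. At baseline, no member differed between ByJcl and Ajcl by edgeR at an adjusted p below 0.05, where 0.159% of all genes did; none of the members had an unadjusted p below 0.05, and DESeq2 called none. The log2 difference, ByJcl minus Ajcl, was 0.21 for Ly6c1 (95% interval -0.16 to 0.57, adjusted p = 0.698), 0.31 for Ly6c2 (-0.03 to 0.65, adjusted p = 0.606), -0.03 for Ly6a (-0.53 to 0.47, adjusted p = 0.976) and 0.37 for Ly6e (-0.14 to 0.88, adjusted p = 0.655). For Ly6c2 the 3 ByJcl libraries (16.3 to 19.2 CPM) were all above the 3 Ajcl libraries (13.5 to 15.1 CPM), a pattern that 9.19% of genes shared.

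At Day 5, the same comparison used libraries that also entered the values on which the members were chosen, so its p-values are not independent of that choice and support no difference on their own. No member passed in edgeR, where 0.165% of genes did, although 2 members had an unadjusted p below 0.05, as did 14% of all genes. Ly6a differed by 0.94 on the log2 scale (95% interval 0.37 to 1.52, 1.92-fold, adjusted p = 0.168) and Ly6e by 0.66 (0.08 to 1.24, 1.58-fold, adjusted p = 0.311), and both were without overlap between the substrains, as in 16.9% of all genes. For Ly6a, DESeq2 gave a log2 difference of 0.95 with an adjusted p of 0.0152, in a test that called 3.15% of all genes. The log2 difference of Ly6a was 1.46 without Ajcl library 3 (adjusted p = 0.038) and 0.57 without Ajcl library 2, each time against a single Ajcl library. That of Ly6e was 1.00 without Ajcl library 3 and 0.39 without Ajcl library 2, again against a single library, and 0.35 without ByJcl library 1. Ly6c1 and Ly6c2 differed by 0.21 (-0.19 to 0.62, adjusted p = 0.619) and 0.19 (-0.19 to 0.56, adjusted p = 0.642), with overlapping libraries.

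Per kilobase of the canonical transcript, Ly6c1 had the highest level of the members in all groups, and Ly6c2 the lowest at baseline. At baseline in Ajcl, Ly6c1 stood at 131 ± 14.9 CPM per kb (SD, n = 3), Ly6e at 35.3 ± 4.50, Ly6a at 31.5 ± 4.94 and Ly6c2 at 17.4 ± 1.12. Ly6e and Ly6a, neighbours in this order, did not differ beyond their spread. In ByJcl the order was the same at baseline, with Ly6c1 at 151 ± 11.1, Ly6e at 45.6 ± 8.43, Ly6a at 30.7 ± 4.56 and Ly6c2 at 21.6 ± 1.85 CPM per kb. At Day 5 in ByJcl, the values were 501 ± 116 CPM per kb for Ly6c1, 131 ± 27.1 for Ly6a, 110 ± 35.5 for Ly6e and 70.0 ± 14.6 for Ly6c2. The SD ranges of Ly6a and Ly6e overlapped, as did those of Ly6e and Ly6c2. At Day 5 in Ajcl, Ly6c1 stood at 432 ± 44.1 CPM per kb (n = 2), and Ly6e (69.5 ± 20.5), Ly6a (68.2 ± 29.1) and Ly6c2 (61.4 ± 8.19) were indistinguishable. The order depends on the transcript taken as the length, since the annotated coding transcripts of Ly6a run from 336 to 3857 bases and those of Ly6c1 from 393 to 2817.

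The endothelial marker sum was not higher at Day 5, and in ByJcl every Day 5 sum was below every baseline sum, which by itself raises a ratio to it. It covered 10150 to 11300 CPM in Ajcl and 11450 to 13060 CPM in ByJcl at baseline, and 10000 to 10340 CPM and 8144 to 11340 CPM at Day 5. None of its 18 genes was at 0 in any library. Their median log2 fold change at Day 5 was 0.01 in ByJcl, with 9 of 18 positive, and -0.02 in Ajcl, with 8 of 18 positive. The lower sum in ByJcl is thus not a fall of most markers. Ehd3, which is part of it, had means of 2700 CPM at baseline and 1540 CPM at Day 5 there. The members are not among these 18 genes and were set against their sum as a ratio in percent. The members were selected on their levels after ADR, so these ratios are a description from which nothing is read. For Ly6c1 this ratio was 1.16% to 1.57% at baseline and 3.54% to 7.82% at Day 5 over both substrains, without overlap. For Ly6a it was 0.851% to 1.29% at baseline, 1.71% and 3.29% in Ajcl at Day 5, and 3.85% to 7.39% in ByJcl at Day 5. In the library of Ajcl outside the fit the ratio was 5.02% for Ly6c1 and 3.34% for Ly6a at an endothelial sum of 8736 CPM. Single endothelial genes moved in opposite directions in ByJcl, where 2 of 18 rose and 3 fell by edgeR, against 5.75% and 4.83% of all genes. Plvap, of fenestral diaphragms, rose (log2 fold change 0.95, SE 0.27, adjusted p = 0.047), as did the junction gene Esam (0.68, SE 0.15, adjusted p = 0.015). The tight junction gene Cldn5 fell (-1.67, SE 0.29, adjusted p = 0.00652), as did Ehd3, an endocytic gene typical of glomerular endothelium (-0.81, SE 0.20, adjusted p = 0.0271). Plvap lost its call without any 1 of 8 libraries (adjusted p = 0.057 to 0.142) and in a fit of the ByJcl groups alone (0.0658). Without ByJcl baseline library 1 or 2 the counts were 0 that rose and 1 that fell, and without ByJcl Day 5 library 2 they were 1 and 1. Esam lost its call without ByJcl baseline library 1 or 2 (0.0588 each), and Ehd3 without any of 4 ByJcl libraries (0.0515 to 0.102), with all 12 libraries (0.0524) and with the ByJcl groups alone (0.0618). In Ajcl none of the 18 was called by edgeR or DESeq2, and 2 had an unadjusted p below 0.05 (9.8% of all genes).

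**Figure D3:**
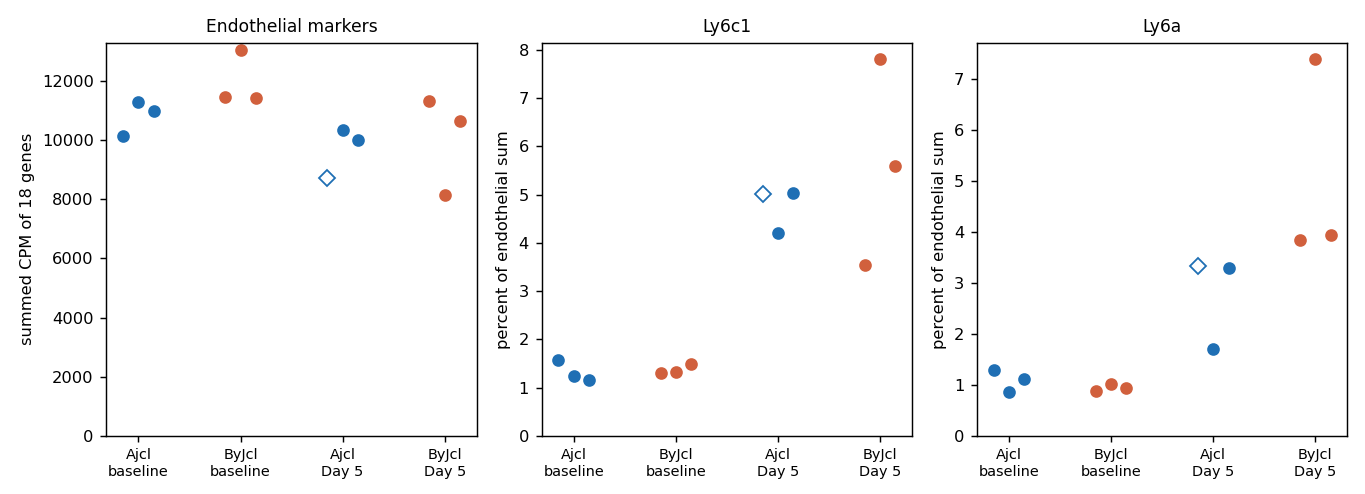
Summed CPM of 18 endothelial markers (left), and Ly6c1 (middle) and Ly6a (right) as a ratio to that sum in percent (neither gene is part of it), by group; each point is a library, and the open diamond is library 1 of Ajcl at Day 5. The sum lies between 8144 and 13060 CPM and is lower in every Day 5 than in every baseline library of ByJcl. The ratio of Ly6c1 to it is 1.16% to 1.57% at baseline and 3.54% to 7.82% at Day 5. Both genes were selected on their levels after ADR, so nothing is read from the ratios.

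The summed myeloid markers lay above Ly6c2 in every library and were of the order of Ly6e and Ly6a at baseline. The 18 myeloid genes, which mark monocytes, macrophages and neutrophils, summed to 71.4 to 105 CPM in Ajcl and 119 to 187 CPM in ByJcl at baseline. At Day 5 these sums were 59.7 and 127 CPM in Ajcl and 140 to 244 CPM in ByJcl. The ranges of the time points overlapped in both substrains, and no myeloid marker was at 0 in any library. Their median log2 fold change at Day 5 was 0.00 in Ajcl and 0.31 in ByJcl, where the lysosomal macrophage gene Cd68 rose from 2.99 ± 0.0388 to 6.74 ± 1.27 CPM (SD, n = 3; log2 fold change 1.17, SE 0.24, adjusted p = 0.0128) as 1 of 18, a share close to the 5.75% of all genes that rose. This call was lost without ByJcl baseline library 2 (adjusted p = 0.0536) or Day 5 library 2 (0.0555). When Ajcl Day 5 library 2 or library 3 was left out, 2 myeloid genes were called higher, without ByJcl Day 5 library 1 there was 1 called lower, and DESeq2 called 2 higher and 1 lower. Between substrains, 18 of 18 myeloid genes had a positive log2 difference (ByJcl minus Ajcl) at baseline and 17 of 18 at Day 5, with medians of 0.80 and 1.12, but edgeR called none. The exception was the macrophage receptor gene Csf1r at -0.49 at Day 5 (95% interval -0.92 to -0.05, adjusted p = 0.317), named after its values were seen. Counting either direction, 6 of 18 had an unadjusted p below 0.05 at baseline (8.34% of all genes) and 9 at Day 5, Csf1r included (14% of all genes), and DESeq2 called 0 and 1. The 15 lymphoid genes summed to 5.09 to 13.7 CPM over the libraries of the fit, with the defining markers Cd3g and Ms4a1 among those at 0 in at least 1 library. With these libraries edgeR called none at Day 5 in either substrain, and DESeq2 called 1 lower in each. At an unadjusted p below 0.05 there were 1 in Ajcl and 2 in ByJcl (9.8% and 26.8% of all genes). In ByJcl edgeR called 1 lower with no filter on low counts, and without Ajcl or ByJcl baseline library 1. The part of leukocytes in the levels of Ly6c2, Ly6a and Ly6e was not tested.

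Most other genes of the family did not follow the members, which were selected on their levels after ADR, so this difference is only a description. Of 39 other Ly6 and uPAR family genes listed, 16 passed the filter on low counts. The remaining 23 had at most 50 counts summed over all 12 libraries, and 7 of them had none. In ByJcl, Ly6i and Gpihbp1 rose and Lypd1, Lypd6 and Cd59a fell by Day 5, against 5.75% and 4.83% of all genes that rose and fell. The median log2 fold change of the 16 was -0.01 in ByJcl and 0.10 in Ajcl. In Ajcl none of the 16 was called by edgeR, and 4 had an unadjusted p below 0.05 (9.8% of all genes). DESeq2 called 2 there, Ly6i and Gpihbp1 (1.77% of all genes in either direction).

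Ly6i, the neighbour of Ly6a within the cluster, was expressed at a low level. It stood at 0.482, 1.04 and 0.845 CPM in Ajcl and at 0.998, 1.14 and 0.976 CPM in ByJcl at baseline, and at 2.21 and 2.19 CPM in Ajcl and 3.10, 2.32 and 2.57 CPM in ByJcl at Day 5. The time points did not overlap. The log2 fold change was 1.36 in ByJcl (SE 0.29, adjusted p = 0.016) and 1.47 in Ajcl (SE 0.32, adjusted p = 0.113). The call in ByJcl was lost without any 1 of the ByJcl baseline libraries (adjusted p = 0.0591 without library 1, 0.0527 without library 2 and 0.0565 without library 3). Of 50-base windows, 1.25% of those in Ly6c1 and 0.848% of those in Ly6a also occur in Ly6i.

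Gpihbp1, which carries lipoprotein lipase across capillary endothelium, had the largest increase in ByJcl among these 16 genes. Its level was 18.2, 16.3 and 18.7 CPM at baseline and 45.3, 86.8 and 53.7 CPM at Day 5 in ByJcl (log2 fold change 1.80, SE 0.30, adjusted p = 0.00477). In Ajcl it was 18.2, 12.0 and 10.3 CPM at baseline and 23.4 and 43.1 CPM at Day 5 (1.31, SE 0.32, adjusted p = 0.154).

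Lypd1, a modulator of nicotinic receptors, had the largest decrease of the 16 in ByJcl. There it went from 52.6, 44.7 and 46.0 CPM to 3.10, 0.919 and 2.18 CPM (log2 fold change -4.53, SE 0.67, adjusted p = 0.00325). In Ajcl, the libraries at Day 5 were far apart, at 37.1 and 4.18 CPM, after 49.2, 63.6 and 49.1 CPM at baseline (-1.39, SE 0.66, adjusted p = 0.543). Without Ajcl library 2 at Day 5, which leaves the single library at 4.18 CPM, the value in Ajcl was -3.71 (adjusted p = 0.0094). Cd59a, an inhibitor of the complement membrane attack complex, fell in ByJcl from 235 ± 44.8 to 107 ± 8.38 CPM (SD, n = 3; -1.13, SE 0.23, adjusted p = 0.0132). Lypd6 fell from 25.5 ± 1.87 to 10.0 ± 5.35 CPM (-1.35, SE 0.30, adjusted p = 0.0191), a call that was lost without ByJcl baseline library 1 (adjusted p = 0.0522) or 2 (0.0641) or Day 5 library 3 (0.0558), and in a fit of the ByJcl groups alone (0.055). Podocyte markers also fell in ByJcl, 12 of 14 by edgeR against 4.83% of all genes, with a median log2 fold change of -1.27. In Ajcl 13 of 14 were negative with a median of -0.37 and edgeR called none, while 5 had an unadjusted p below 0.05 (9.8% of all genes). DESeq2 called 2 lower and 1 higher there, and edgeR called 1 higher with no filter on low counts and with all 12 libraries. Among those in ByJcl, the slit diaphragm scaffold gene Magi2 went from 307 ± 29.6 to 59.1 ± 12.3 CPM (-2.38, SE 0.28, adjusted p = 0.00142). The cyclin-dependent kinase inhibitor gene Cdkn1c was the 1 podocyte marker that rose there (1.01, SE 0.18, adjusted p = 0.0067).

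The other 11 family genes were not called in either substrain. Plaur, the urokinase receptor, had a log2 fold change of 0.47 in ByJcl (SE 0.20, adjusted p = 0.167) and Cd59b of -0.95 (SE 0.30, adjusted p = 0.0701). Plaur passed without ByJcl Day 5 library 3 (adjusted p = 0.0274), and Cd59b with DESeq2 (0.0226), in the ByJcl groups alone (0.0496) and without either Ajcl Day 5 library (0.0238 and 0.023). In ByJcl, Lynx1 (0.26), Ly6g5b (0.02), Ly6g6d (-0.01) and Lypd6b (0.00) were close to 0 on the log2 scale, and the sign of Ly6g6d and Lypd6b turned with another scaling (0.03 and 0.04 with library totals). Ly6g6c (0.61), Ly6g6e (0.17), Ly6g2 (-0.29), Cd177 (-0.80) and Psca (-1.07) had SEs of 0.57 or more at mean levels below 7 CPM. EdgeR called none of the 16 between substrains at baseline, where 0 had an unadjusted p below 0.05 and DESeq2 called 0. At Day 5 edgeR also called none, while 3 had an unadjusted p below 0.05 (14% of all genes) and DESeq2 called 1 (3.15%). At Day 5, Lypd1 was lower in ByJcl by 3.32 on the log2 scale in value (adjusted p = 0.0935 with edgeR), and passed with DESeq2 (adjusted p = 0.00319) and with no filter on low counts (0.0447). Against the single Ajcl library at 37.1 CPM, without library 3, its log2 difference was -4.16 (adjusted p = 0.00187), and against the single one at 4.18 CPM, without library 2, it was -1 (adjusted p = 0.988). With all 12 libraries it was -3.17 (adjusted p = 0.0531).

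**Figure D4:**
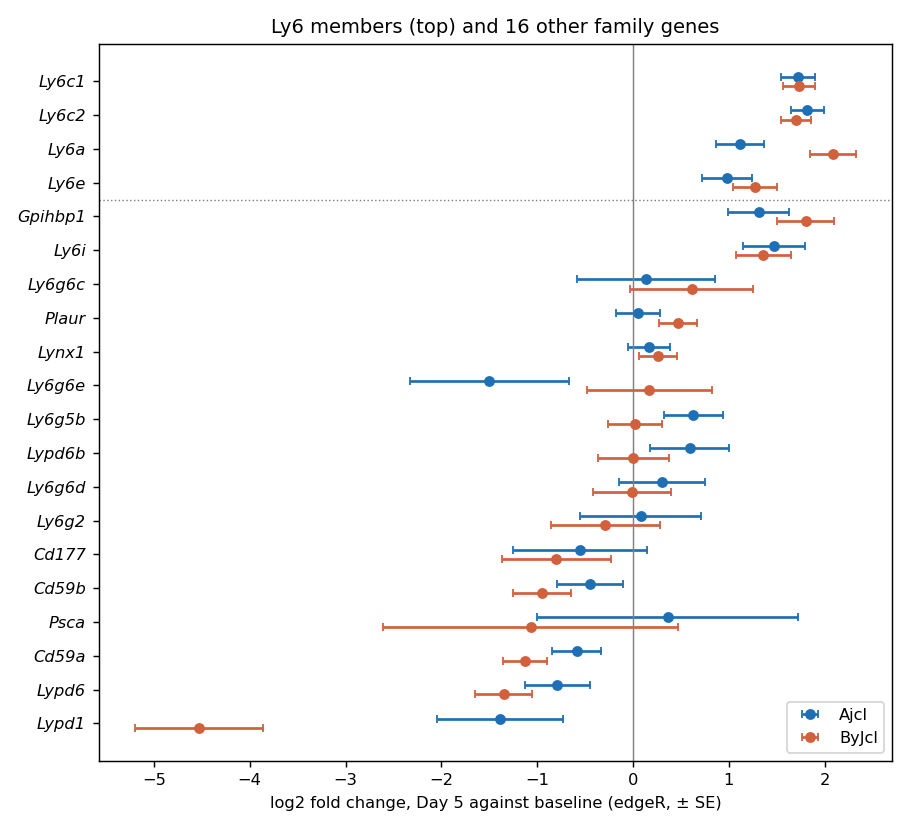
Log2 fold change at Day 5 against baseline (x axis, bars ± SE from edgeR) for the 4 members above the dotted line and 16 other family genes below it, in Ajcl (blue) and ByJcl (orange). The members, Ly6i and Gpihbp1 lie to the right of 0 in both substrains, with Ly6a at 1.12 in Ajcl and 2.09 in ByJcl, and Lypd1 lies farthest to the left in ByJcl.

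Interferon-stimulated genes, to which Ly6a and Ly6e are usually counted, rose in ByJcl. Of 36 such genes listed without the members, 28 rose in ByJcl by edgeR and none fell, against 5.75% and 4.83% of all genes. There 36 of 36 had a positive log2 fold change, as did 8633 of the 17002 genes tested, and the median was 1.13. In Ajcl 2 rose, against 0.306% of all genes. In that substrain 36 of 36 were positive, as were 8272 of the 17002 genes, and the median was 0.79. The count in ByJcl was 15 without ByJcl baseline library 1 or 3 and 18 without baseline library 2 or Day 5 library 1. In Ajcl it was 0 without any 1 of the Ajcl baseline libraries, Ajcl Day 5 library 3 or ByJcl baseline library 3, 1 without ByJcl Day 5 library 3, 12 without Ajcl Day 5 library 2, and 16 with DESeq2. The chemokine gene Cxcl10 rose in both, from 0.963 ± 0.238 to 15.4 ± 16 CPM in Ajcl (n = 3 and 2; log2 fold change 3.99, SE 0.64, adjusted p = 0.0298) and from 1.65 ± 0.476 to 30.1 ± 13.0 CPM in ByJcl (4.19, SE 0.61, adjusted p = 0.00305). The other gene called in Ajcl was Ifit3, an antiviral effector (1.31, SE 0.22, adjusted p = 0.0366), and the guanylate-binding protein gene Gbp2 was among the clearest in ByJcl (2.28, SE 0.34, adjusted p = 0.00327). In Ajcl, without library 3 at Day 5, the log2 fold change was 2.07 for Cxcl10 (adjusted p = 0.353) and 0.89 for Ifit3 (adjusted p = 0.619). Both lost their calls in a fit of the Ajcl groups alone (0.108 for Cxcl10 and 0.104 for Ifit3). Summed over the list, the level was 1047 to 1323 CPM in Ajcl and 1418 to 1741 CPM in ByJcl at baseline, and 1510 and 2553 CPM in Ajcl and 2705 to 4249 CPM in ByJcl at Day 5. At Day 5, all ByJcl sums were above both Ajcl sums, as were the levels of Ly6a and Ly6e. At baseline the sums were also apart, while the levels of Ly6a and Ly6e overlapped. Between substrains, edgeR called none of the 36 at either time point. At baseline and Day 5, 12 and 21 had an unadjusted p below 0.05 (8.34% and 14% of all genes). DESeq2 called 2 at baseline and 6 at Day 5, all higher in ByJcl (0.594% and 3.15% of all genes in either direction). Between the substrains' responses to ADR, edgeR called none of the 36, with a median difference of 0.19. Of these, 3 had an unadjusted p below 0.05 (8.02% of all genes).

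Genes of GPI anchor synthesis and attachment, on which Ly6 proteins depend for their place at the surface, gave no call in edgeR with all libraries of the fit. Of 31 listed, 30 were tested and edgeR called none in either substrain (DESeq2 called 1 higher in ByJcl). At an unadjusted p below 0.05 there were 0 in Ajcl and 6 in ByJcl, against 9.8% and 26.8% of all genes. Without ByJcl Day 5 library 1 edgeR called 2 of them lower, and without Day 5 library 3 it called 1 higher. The median log2 fold change was -0.05 and -0.10. Of 10 mesangial genes, another glomerular cell type, 2 rose in ByJcl, against 5.75% of all genes. They were the contractile gene Tagln (1.31, SE 0.16, adjusted p = 0.00163) and Serpine2 (0.87, SE 0.12, adjusted p = 0.00285). EdgeR and DESeq2 called none in Ajcl, where 3 had an unadjusted p below 0.05 (9.8% of all genes). Tagln was also called higher in ByJcl than in Ajcl at Day 5 (log2 difference 1.15, SE 0.18, adjusted p = 0.0436), where 0.165% of all genes were called in either direction. No mesangial gene was called in that contrast when any 1 of 9 of the 11 libraries was left out, or with the 2 groups alone. With all libraries of the fit, edgeR called no marker of the proximal tubule or the distal nephron at Day 5 in either substrain. In ByJcl 1 distal marker had an unadjusted p below 0.05 (26.8% of all genes), and DESeq2 called it. Without ByJcl baseline library 1, edgeR called 1 proximal tubule marker lower in ByJcl. The sums of both tubule lists were lower in ByJcl than in Ajcl in median (proximal 3087 against 5063 CPM at baseline and 1865 against 3804 CPM at Day 5). The part of this in the substrain differences of the members was not tested.

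The genes whose levels ran most like those of the members were named over the 11 libraries of the fit, as a description. For Ly6c1 these were Arhgap20 (Pearson r = 0.98, Spearman rho = 0.836), Lpar1 (0.977 and 0.827) and Bbc3 (0.973 and 0.909). For Ly6c2 they were the same genes, Arhgap20 (0.986 and 0.9), Bbc3 (0.98 and 0.909) and Lpar1 (0.979 and 0.882). For Ly6a they were Mmp10 (0.99 and 0.93), Bax (0.985 and 0.945) and Acot7 (0.983 and 0.927), and for Ly6e Xaf1 (0.987 and 0.991), Tgtp2 (0.982 and 0.955) and Ifi47 (0.982 and 0.982). Libraries within each time point share their treatment, and the correlations were not tested.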

How the data were processed

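Glomerulus-enriched RNA was sequenced as strand-specific paired-end poly(A) libraries, and the 12 libraries were grouped by the submitters' labels. The authors used Trimmomatic for trimming, STAR for alignment to GRCm39 and featureCounts for counting, and deposited whole-number counts of 26264 symbols. Between 77.08% and 82.85% of counts from 1 to 49 are even. Whether a read pair counts as 1 or 2 is not given, so depths in fragments may be lower than printed.

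Counts were analysed in R 4.3.3 with edgeR 4.0.16: filterByExpr (17002 genes), TMM, quasi-likelihood F tests with 1 coefficient per group in 11 libraries (7 residual degrees of freedom) and Benjamini-Hochberg adjustment at 0.05. The step was tested on simulated data. DESeq2 1.42.0, other scalings and filters, all 12 libraries, a replicate block, halved counts, 2-group fits and fits without each library were alternatives. No libraries of the same group were duplicates (chi-square per degree of freedom of 44.6 or more). Libraries of different groups were not compared in this way. Windows and motifs were searched with Python 3.11.15, alignments made with Biopython 1.88 and figures with matplotlib 3.10.9.

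The members and lists were chosen with earlier results of these data known. Named were the members, family genes that passed the filter, from each other list, for either direction in each Day 5 contrast, at most the 2 called genes of lowest adjusted p, and the 3 genes most correlated with each member at a mean of at least 1 CPM. Some genes under this rule are not reported here.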

Additional observations from a re-analysis of the deposited data

Results flagged for a closer look

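Library 1 of Ajcl at Day 5 was outside the fit behind the comparisons, and entered only the alternative with all 12 libraries. In it, all members were above every Ajcl baseline library, with 439 CPM for Ly6c1, 43.9 CPM for Ly6c2, 292 CPM for Ly6a and 170 CPM for Ly6e. These values were picked out because they are a signal in a library that the reported comparisons do not use.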

How the results depend on the processing

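Numbers of called genes depended on the tool and the libraries. Between substrains at baseline they were 101 with DESeq2 and 15 with only the 2 groups compared. Between substrains at Day 5 they were 535 with DESeq2, 56 with no filter, 72 with all 12 libraries and 6 with only the 2 groups. For Day 5 against baseline in Ajcl they were 301 with DESeq2, 99 with no filter and 33 with only the 2 groups. For Day 5 against baseline in ByJcl they were 2694 with DESeq2 and 1197 with all 12 libraries, and for the substrain by adriamycin interaction 22 with DESeq2. Leaving out 1 library gave 12 to 29 at baseline, 9 to 218 at Day 5, 11 to 180 in Ajcl, 680 to 2056 in ByJcl and 0 to 5 for the interaction. Libraries with the same replicate number had correlations of deviations of -0.238 to 0.374, over 0.1 in 4 of 15 pairs. Libraries with different numbers were not compared in this way, so whether the numbers pair the libraries was not settled. The replicate block gave 26 calls in Ajcl, where Cxcl10 (adjusted p = 0.131) and Ifit3 (0.113) lost theirs, and in ByJcl Plvap lost its call (0.0648).

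Ly6a between substrains at Day 5 was 0.95 on the log2 scale with DESeq2 and 0.57 to 1.46 with 1 library left out, and that of Ly6e was 0.35 to 1.00. At baseline it was -0.16 to 0.05, so its sign was not fixed. With 1 library left out, the Ly6a change in Ajcl was 0.58 to 1.48, its interaction 0.62 to 1.52 and the Ly6e interaction 0.01 to 0.65.

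Family genes near 0 in ByJcl changed sign. Ly6g6d became 0.01 with DESeq2, RLE and the block, 0.03 with library totals, and 0 with all 12 libraries or 2 groups. Lypd6b became 0.02 with DESeq2, RLE and halved counts, 0.04 with library totals, and 0.01 with the stricter filter, all 12 libraries or 2 groups. With 1 library left out the ranges were -0.24 to 0.25 for Ly6g6d, -0.18 to 0.25 for Lypd6b, -0.07 to 0.1 for Ly6g5b, -1.02 to 0.13 for Ly6g2, -0.16 to 0.78 for Ly6g6e and -5.24 to 1.05 for Psca. Of 60 other family values, which are not given in the text, 31 changed sign in at least 1 alternative. The causes were not tested.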
